A study of Mus musculus with 24 samples.

Results

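The comparison described here set P815 cells carrying a short hairpin RNA vector directed at Esr1 (SH, 3 libraries) against P815 cells carrying a negative control vector (NC, 3 libraries), both without added β-estradiol (E2). These 6 libraries were chosen by their labels, out of 24 in the series. P815 is a mouse mastocytoma line, a tumour line of the mast cell lineage, and was grown in RPMI-1640 with 10% fetal bovine serum. The other 18 libraries comprise the same vectors with E2 (SH_E2 and NC_E2), and cells given the antiestrogens ICI-182780 (ICI) or tamoxifen (Tamo), without or with E2. Treatment lasted 24 h in those 6 groups by their labels, while SH and NC carry no time. The labels name neither the hairpin sequence nor whether the transfected cells were a clone or a pool, and nothing in them says that each library came from its own culture. What the p-values measure is then the spread between libraries of a group, pooled over all groups of the series, and that spread may be technical. SH and NC share every other labelled condition, including the serum.

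Esr1 encodes estrogen receptor alpha, a nuclear receptor that acts as a ligand-dependent transcription factor at estrogen response elements and, through other DNA-bound factors such as AP-1, at further sites. A short hairpin RNA is processed into a small interfering RNA that directs the cleavage of a matching messenger RNA. Mast cells store proteases, histamine and proteoglycan in granules, depend on the receptor Kit, and read their surroundings through cytokine, Fc and G protein-coupled receptors, whose signals reach the nucleus in part through MAP kinases and immediate early transcription factors.

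RNA levels are given as FPKM (fragments scaled to gene length and library size, errors are SD, n = 3 libraries a group), and differences as the log2 fold change of SH minus NC with its standard error. Adjusted p values are from edgeR's quasi-likelihood test with Benjamini-Hochberg adjustment over the 12183 genes tested. A gene is said to have risen or fallen where the adjusted p was under 0.05. The SH and NC libraries held 53.1 to 66.6 M estimated counts each. Mitochondrially encoded genes took 5.18% to 5.42% of the NC libraries and 4.80% to 5.08% of the SH libraries, so these ranges did not overlap, while with E2 they did (4.78% to 5.19% in NC_E2 and 4.76% to 5.20% in SH_E2). The part of this in the differences below was not tested. In bulk RNA, fewer cells of a type and less RNA per cell cannot be told apart.

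The targeted gene was expressed at a low level in both groups. Esr1 read 0.404, 0.435 and 0.187 FPKM in NC and 0.347, 0.227 and 0.260 FPKM in SH, from 185 to 392 estimated counts a library. The groups overlapped, since NC replicate 3 was the lowest of the 6. The difference in log2(FPKM + 0.1) was -0.186 (exact two-sided permutation p = 0.7, where 0.1 is the smallest p that 3 against 3 allows). Without NC replicate 3 the difference was -0.471, and without NC replicate 2 it was -0.0222. A lower Esr1 messenger RNA level in SH was therefore not detectable with 3 libraries a group and this spread among replicates. The libraries are named SH by their label. With E2, Esr1 averaged 0.314 ± 0.0781 FPKM in NC_E2 and 0.215 ± 0.0369 FPKM in SH_E2, a difference that was not tested. Esr2, the gene of estrogen receptor beta, had 0 to 8 estimated counts, Gper1, the membrane estrogen receptor gene, 0 to 8, and Pgr, the progesterone receptor gene, 0 in all 6 libraries.

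Mast cell markers were present: 13 of 17 in the table averaged at least 1 FPKM, among them Kit (125 ± 17.1 FPKM in NC and 117 ± 15.8 FPKM in SH) and Gata2 (172 ± 28.98 FPKM in NC and 166 ± 20.9 FPKM in SH), while the IgE receptor gene Fcer1a stayed at 0 to 0.663 FPKM. Their summed level was 874 to 1138 FPKM in NC and 1075 to 1286 FPKM in SH, with overlap. The higher level in SH came through Cpa3, whose values are given below. Of 14 tested 1 rose (Cpa3) and 5 fell (Mrgprb1, Tpsb2, Tpsab1, Il1rl1 and Srgn), with a median log2 fold change of -0.33. Markers of other cells were mostly near absent. All 5 B cell markers, 8 of 9 T and NK cell markers and 8 of 9 fibroblast and epithelium markers stayed under 1 FPKM in every library, with Cd3e, Cd3g, Cd8a, Ms4a1, Epcam and Krt8 at 0 counts. For 3 other marker lists SH had the higher summed level without overlap. The erythroid and megakaryocyte list went from 34.2 to 37.5 FPKM in NC to 82.1 to 97.3 FPKM in SH through Pf4 and Itga2b, with the red cell gene Hbb-bs at 0 counts. The basophil list summed to 33.3 to 36.2 FPKM in NC and 55.4 to 72.8 FPKM in SH, through Mcpt8. The macrophage and dendritic cell list summed to 24.1 to 26.6 FPKM and 30.3 to 34.1 FPKM, through Lyz2, with 10 of its 13 genes under 1 FPKM in all 6 libraries. The part of these markers in the results was not tested.

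Between SH and NC, edgeR called 1105 of 12183 genes, or 9.07%. Of these 600 rose (4.92% of the genes tested) and 505 fell (4.15%). The changes were mostly moderate. The median absolute log2 fold change of the called genes was 0.80, 215 rose and 156 fell by at least 2-fold, and 11 rose and 22 fell by at least 8-fold. FPKM ranges of SH and NC did not overlap for 1095 of the called genes, against 26.9% of all genes tested. Same-numbered SH and NC libraries deviated together from their group means, and with the replicate number as a block edgeR called 2572 genes, of which 1335 rose and 1237 fell, including 1104 of the 1105. Family counts given with the block below are to be set beside these 2572 calls among the 12183 genes tested, not beside the 1105. Limma-trend on log2(FPKM + 1) gave a different balance, with 771 rising and 413 falling, and 780 rising and 409 falling in the comparison with E2 described next. Of 247 called genes chosen for naming as given with the processing, 116 kept their call under every alternative setting. The genes described below belong to those 116 unless a setting is given beside them.

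The same hairpin comparison in the presence of E2 used 6 other libraries and gave much the same genes. SH_E2 against NC_E2 called 1168 genes (9.59%), 646 rising and 522 falling. Of the 600 genes that rose without E2, 480 (80%) also rose with it, which is 74.3% of the 646. Of the 505 that fell, 384 (76.0%) also fell with E2, which is 73.6% of the 522. None was called in opposite directions, and 597 of 600 and 503 of 505 had the same sign. A test of whether the difference between the vectors changed with E2 called 0 genes in edgeR, with 139 at an unadjusted p under 0.05. Both comparisons used the same vectors, and a lasting difference between the cells that carry them, apart from the hairpin, was not tested.

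Called genes were unevenly spread over the chromosomes. On chromosome 19, 86 of 450 genes tested fell (19.1%) and 11 rose, with a median log2 fold change of -0.32. On chromosome 3, 85 of 597 rose (14.2%) and 20 fell, with a median of 0.13. Every other chromosome had between 1.80% and 6.99% of its genes rising and between 2.27% and 5.82% falling, leaving out the Y chromosome and the mitochondrial genome, where 0 were called. The medians with E2 were -0.35 and 0.12. Outside these chromosomes 903 of 11136 genes were called, 504 rising and 399 falling. A difference in gene dosage between the vector lines was not tested. Genes of either chromosome are marked as such below.

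**Figure D1:**
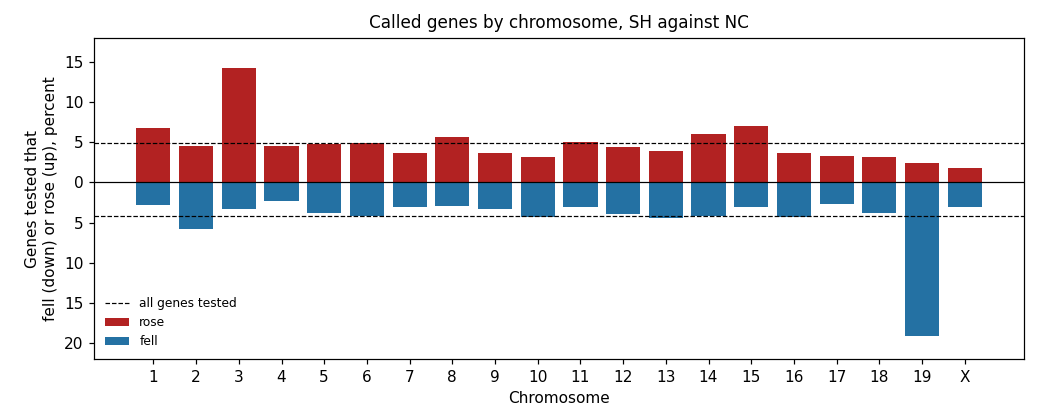
Percent of the genes tested on each chromosome that rose (upward bars) or fell (downward bars) in SH against NC. The dashed lines mark all genes tested (4.92% rising, 4.15% falling). Chromosome 19 stands out with 19.1% falling and chromosome 3 with 14.2% rising.

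Proteins at the cell boundary were called more often than those of the nucleus. By the gene ontology terms in the deposited table, 25.6% of 219 cell surface genes, 23.6% of 110 genes of the external side of the plasma membrane and 25.1% of 331 extracellular space genes were called. The share was 11.6% for 372 genes with DNA-binding transcription factor activity, 8.71% for 3926 nuclear genes, 8.54% for 1335 mitochondrial genes and 3.87% for 181 ribosome genes. Beside these stand 9.07% of all genes and 10.5% of protein-coding genes. The differences between terms were not tested. The family lists hold protein-coding genes only, of which 10.5% of 9929 tested were called (5.83% rising and 4.66% falling). Family counts given below without the block, and with all libraries, are to be set beside these shares. In the family lists drawn up for this comparison, 62 surface genes rose and 35 fell of 490 tested, 25 transcription factor genes rose and 40 fell of 518, and 24 genes of secreted proteins rose and 25 fell of 164. The intracellular families had 41 rising and 39 falling of 511. With the replicate block these became 103 and 80 for surface genes, 61 and 71 for transcription factors, 32 and 43 for secreted proteins, and 71 and 85 for the intracellular families. For the surface lists rises and falls numbered 36 and 29 without NC replicate 2, and 40 and 25 without NC replicate 3. For the transcription factor lists rises and falls numbered 16 and 31 without NC replicate 2, 11 and 34 without NC replicate 3, 15 and 31 without SH replicate 1, and 12 and 33 without SH replicate 2. For the intracellular lists rises and falls numbered 26 and 32 without NC replicate 2. Outside chromosomes 3 and 19 the surface lists had 51 and 34 of 450, the transcription factor lists 24 and 35 of 492, and the secreted lists 21 and 23 of 141.

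**Figure D2:**
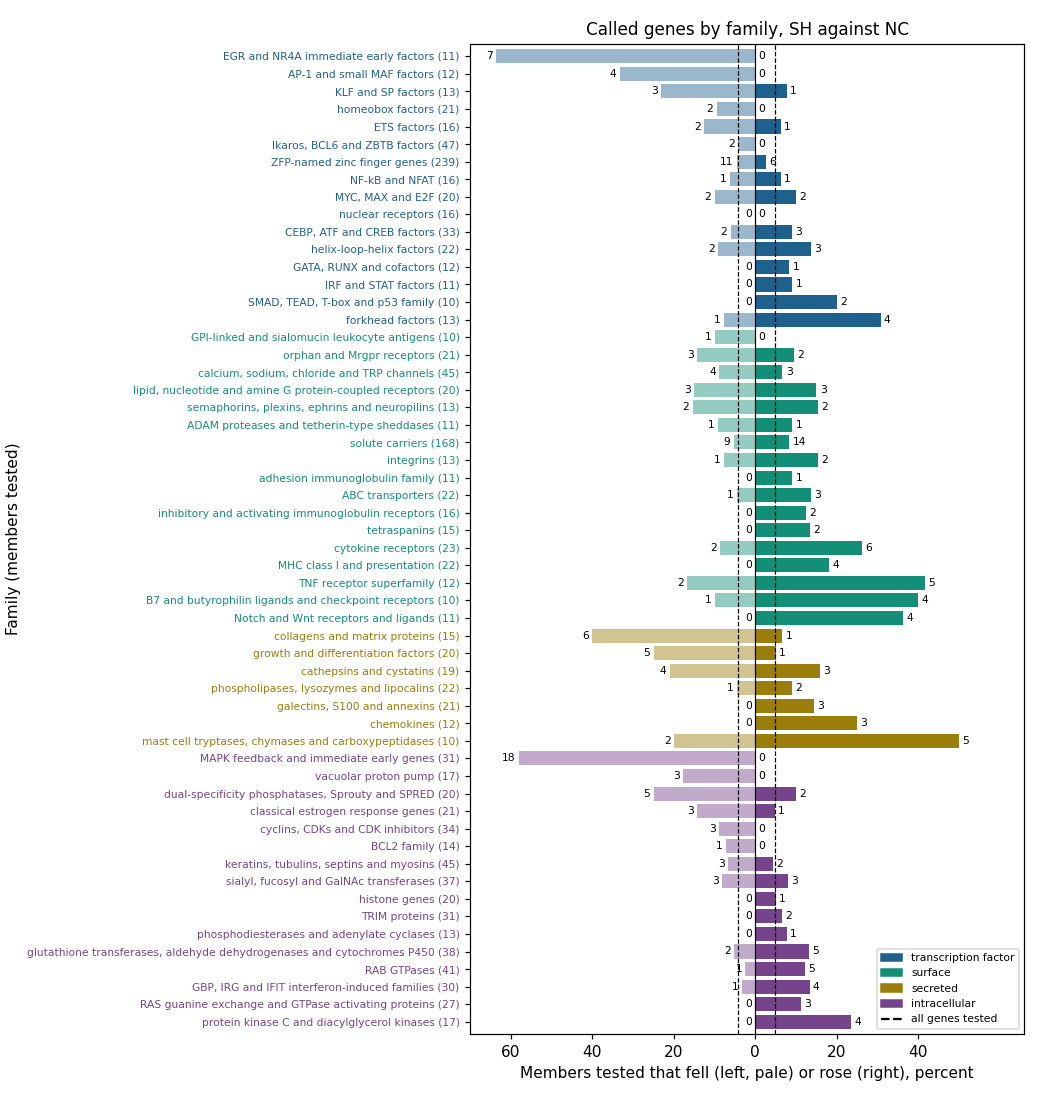
Called genes by family, for families with at least 10 members tested, 1 of them left out. Bars give the percent of members tested that fell (left, pale) or rose (right), numbers beside them the count, and dashed lines the level of all genes tested. Families hold protein-coding genes only, of which 5.83% rose and 4.66% fell, and can share genes. Immediate early families have falls and no rises (7 of 11 for EGR and NR4A factors), while TNF receptors lean to rises (5 of 12, with 2 falls).

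Most tested genes of the immediate early and MAP kinase feedback class fell. Of 31 tested genes in the list of MAP kinase feedback and immediate early genes, 18 fell (58.1%) and 0 rose. Of the protein-coding genes tested, 4.66% fell. The median log2 fold change of the list was -1.02, beside 0.00 for all genes. The count of falls was 25 with the replicate block, 13 to 18 with any 1 of the 6 libraries left out, 13 in the 6 libraries alone, and 16 of 28 outside chromosomes 3 and 19. Errfi1 and Dusp19, which rose, are not in this list. They are counted with the family of dual-specificity phosphatases, Sprouty and SPRED genes below. The list was known to move from earlier results on these data, so its direction is no independent evidence. Lists overlap, so a fall can be counted both here and in a family below, as for Dusp1, Dusp5 and Klf2. For 3 of its genes the RefSeq promoter window (250 bases before to 50 after the annotated start, GRCm38.p6) is printed. These 3 were picked because they hold a match to a motif searched below. For each of the 3 motifs, 1 of the 11 falling genes of the list with a window held a match. A part of these sites in the falls was not tested. Capitals mark a CRE (TGACGTCA, bound by CREB and ATF factors) in Dusp1 (chr17:26508423-26508722, minus strand), a pair of adjoining CArG boxes (bound by serum response factor) in Dusp5 (chr19:53528895-53529194, plus strand) and an EGR motif (GCGNGGGCG) in Klf2 (chr8:72318812-72319111, plus strand).
Dusp1: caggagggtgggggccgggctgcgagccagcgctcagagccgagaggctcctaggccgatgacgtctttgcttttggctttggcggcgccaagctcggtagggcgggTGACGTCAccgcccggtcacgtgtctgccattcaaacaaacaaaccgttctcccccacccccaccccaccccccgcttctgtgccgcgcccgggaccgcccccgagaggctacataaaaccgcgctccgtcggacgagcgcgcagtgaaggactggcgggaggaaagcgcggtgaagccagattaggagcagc
Dusp5: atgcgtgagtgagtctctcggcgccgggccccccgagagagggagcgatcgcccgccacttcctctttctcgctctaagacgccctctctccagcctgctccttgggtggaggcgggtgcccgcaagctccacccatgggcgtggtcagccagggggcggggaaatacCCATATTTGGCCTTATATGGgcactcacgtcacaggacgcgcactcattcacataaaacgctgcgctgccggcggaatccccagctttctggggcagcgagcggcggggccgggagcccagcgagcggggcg
Klf2: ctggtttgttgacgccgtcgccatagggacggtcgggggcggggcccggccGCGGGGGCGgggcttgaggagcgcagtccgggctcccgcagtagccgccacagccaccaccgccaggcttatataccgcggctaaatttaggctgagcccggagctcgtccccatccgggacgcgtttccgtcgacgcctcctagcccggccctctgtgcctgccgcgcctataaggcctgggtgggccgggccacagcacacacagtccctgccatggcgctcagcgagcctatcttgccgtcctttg

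Dusp1, whose product is a nuclear phosphatase that switches off MAP kinases, read 7.62, 14.6 and 8.46 FPKM in NC and 1.49, 4.06 and 2.69 FPKM in SH. It fell by 1.95 ± 0.43 on the log2 scale (adjusted p = 0.00573), and the highest SH library lay below the lowest NC library. Dusp5, an ERK-specific nuclear phosphatase gene on chromosome 19, read 11.96, 20.6 and 17.97 FPKM in NC and 3.49, 7.73 and 4.98 FPKM in SH (-1.70 ± 0.36, adjusted p = 0.00382). Spry4, encoding a Sprouty inhibitor of receptor tyrosine kinase signalling, read 8.52, 8.52 and 7.81 FPKM in NC and 3.05, 3.01 and 2.37 FPKM in SH and varied the least of these among replicates (-1.62 ± 0.12, adjusted p = 4.18e-08). Each of these genes is both switched on by MAP kinase signalling and a brake on it. In the family of dual-specificity phosphatases, Sprouty and SPRED genes, with Errfi1 counted among them, 5 of 20 fell and 2 rose. That was 35.0% called, beside 10.5% of protein-coding genes. With 1 library left out, rises and falls were 0 and 3 without NC replicate 1, 1 and 5 without NC replicate 2 or 3 or SH replicate 2, and 0 and 4 without SH replicate 3. The others called were Dusp19 (0.93 ± 0.28) and, named after their values were seen, Errfi1 (0.75 ± 0.21) and Spred1 (-0.55 ± 0.13), all with calls lost under other settings. Dusp6, the cytoplasmic ERK phosphatase gene, went from 41.2 ± 9.40 to 20.6 ± 7.43 FPKM and fell by 1.06 ± 0.27, with its call lost without NC replicate 1 or SH replicate 3 and in the 6 libraries alone (adjusted p = 0.0788 to 0.095).

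Of 12 AP-1 and small MAF genes, 4 fell (33.3%, beside 4.66% of protein-coding genes) and 0 rose. With the replicate block 8 fell and 0 rose. Jun, the gene of the central AP-1 subunit, read 22.9, 32.7 and 29.4 FPKM in NC and 3.85, 7.05 and 4.78 FPKM in SH (-2.49 ± 0.29, adjusted p = 1.08e-05). Fosl1, its FOS-family partner Fra-1, on chromosome 19, read 9.69, 10.4 and 10.7 FPKM in NC and 3.50, 3.65 and 2.97 FPKM in SH (-1.66 ± 0.19, adjusted p = 1.02e-05). Junb was reduced less, from 45.6 ± 3.48 to 25.7 ± 1.16 FPKM (-0.88 ± 0.13, adjusted p = 1.47e-04). The fall did not extend to every member. Fos, named after its values were seen as the classical partner of Jun, read 4.19, 5.26 and 1.67 FPKM in NC and 5.71, 4.23 and 2.34 FPKM in SH, overlapping between the groups (0.08 ± 0.66, adjusted p = 0.97). The fourth falling member, Maff, had -1.46 ± 0.42 (adjusted p = 0.0326), with its call lost without NC replicate 2 or 3 or SH replicate 1 or 3 and in the 6 libraries alone (adjusted p = 0.0734 to 0.144).

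Among EGR and NR4A immediate early factors and their cofactors, 7 of 11 fell (63.6%, beside 4.66% of protein-coding genes) and 0 rose. Egr3, a zinc finger factor gene, read 5.74, 12.96 and 5.28 FPKM in NC and 0.772, 1.69 and 0.950 FPKM in SH (-2.86 ± 0.52, adjusted p = 0.00116). Egr1, the founding member of that family, was at 53.2 ± 14.2 FPKM in NC and 8.71 ± 5.23 FPKM in SH (-2.67 ± 0.51, adjusted p = 0.00185). Nab2, a corepressor that binds EGR proteins and is itself induced by them, read 27.3, 28.3 and 20.6 FPKM in NC and 12.04, 11.9 and 10.04 FPKM in SH (-1.22 ± 0.16, adjusted p = 3.86e-05). Ier2, a small immediate early nuclear protein gene, was among the tightest of the group, at 63.7, 61.5 and 61.9 FPKM in NC and 43.7, 34.5 and 32.04 FPKM in SH (-0.82 ± 0.14, adjusted p = 4.26e-04). All of these separated SH from NC without overlap. The remaining falls were Egr2 (-2.06 ± 0.61, -3.31 without SH replicate 2), lost without NC replicate 2 or SH replicate 1 or 3, with no filter on low values, in the 6 libraries alone and with replicates 2 and 3 alone (adjusted p = 0.0536 to 0.247), Ier3 (-1.50 ± 0.36), lost without NC replicate 2 or SH replicate 1 or 3, in the 6 libraries alone and with replicates 2 and 3 alone (adjusted p = 0.0557 to 0.104), and Nab1, named after its values were seen (-0.49 ± 0.12), lost without NC replicate 1 (adjusted p = 0.0505).

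Krüppel-like factors followed, with 3 of 13 KLF and SP genes falling and 1 rising (Sp3, 0.43 ± 0.12, lost without NC replicate 1 or 3 or SH replicate 1 or 2, with no filter on low values, in the 6 libraries alone and with replicates 2 and 3 alone (adjusted p = 0.0733 to 0.221)). That was 30.8% called, beside 10.5% of protein-coding genes. Rises and falls came to 0 and 3 without NC replicate 1 or SH replicate 2, and 0 and 2 without NC replicate 3 or SH replicate 1. Klf6, an early response factor gene, read 46.8, 64.1 and 41.4 FPKM in NC and 14, 17.2 and 10.2 FPKM in SH (-1.94 ± 0.24, adjusted p = 2.50e-05). Klf9, on chromosome 19, went from 3.79 ± 0.0658 to 1.67 ± 0.368 FPKM (-1.24 ± 0.21, adjusted p = 7.13e-04). Klf2 read 2.24, 6.83 and 12.7 FPKM in NC and 0.246, 1.03 and 0.288 FPKM in SH (-3.86 ± 0.95, adjusted p = 0.0123). The NC values of Klf2 differed widely, and its call was lost without NC replicate 3 or SH replicate 1 or 3 (adjusted p = 0.0584 to 0.0647).

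**Figure D3:**
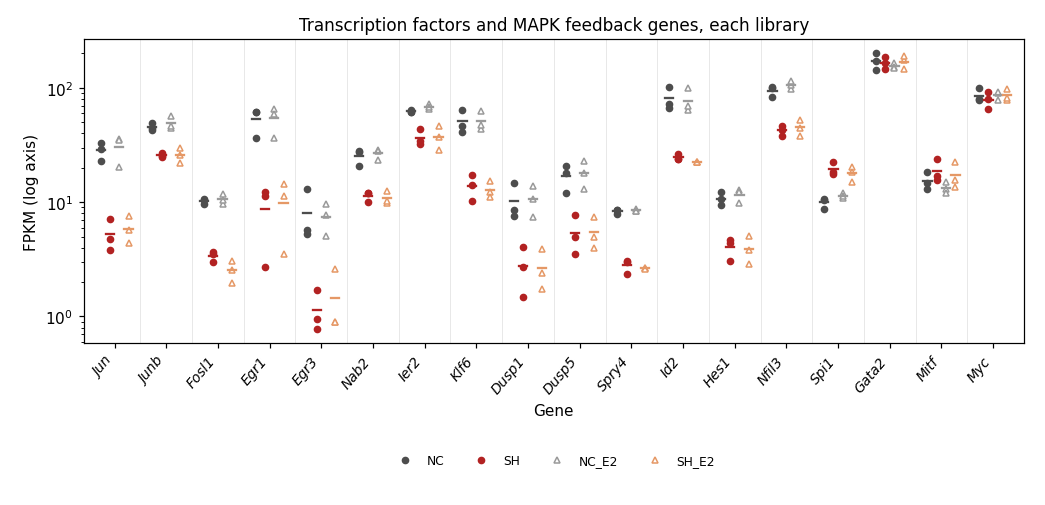
FPKM on a log axis of transcription factor and MAP kinase feedback genes in every library of NC, SH, NC_E2 and SH_E2, with bars at the group means. Jun, Egr3, Klf6, Id2 and Nfil3 sit lower in all SH and SH_E2 libraries, Spi1 higher, while Gata2, Mitf and Myc overlap.

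Promoter windows were matched for 8240 of 12171 tested symbols, including 849 called genes, and searched on both strands as a description. AP-1 sites (TGANTCA) were in 7.11% of 380 windows of falling genes, 5.54% of 469 windows of rising genes and 4.84% of all 8240. EGR motifs were in 13.9%, 10.9% and 10.6%, CRE sites in 3.42%, 3.20% and 3.53%, and CArG boxes in 1.58%, 0.853% and 1.24%. The palindromic estrogen response element (GGTCA and TGACC with 3 bases between) was found in 0 of the 8240 windows. Of the 11 falling immediate early genes with a window, 0 held an AP-1 site. A CRE, an EGR motif or a CArG box was held by 1 each, the 3 windows printed above. These shares were not tested, and a window without a match says nothing of sites outside it.

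Lineage factors of mast cells were called at about the background share. The background was 9.07% of all genes and 10.5% of protein-coding genes called. Of 12 GATA and RUNX genes and cofactors 1 was called (8.33%), or 2 with the replicate block. It was Zfpm1, the GATA1 cofactor gene FOG1 (1.26 ± 0.34, adjusted p = 0.0204), with its call lost without NC replicate 1 or 3 or SH replicate 1, in the 6 libraries alone and with replicates 2 and 3 alone (adjusted p = 0.092 to 0.422). Its difference with E2 was 0.22 ± 0.33 (adjusted p = 0.791). Gata2, the mast cell GATA factor gene, differed by -0.11 ± 0.17 (adjusted p = 0.801) and Mitf, the mast cell and melanocyte factor gene, by 0.23 ± 0.19 (adjusted p = 0.554). For Runx1 the difference was -0.18 ± 0.16 (adjusted p = 0.615), for Gata1 0.18 ± 0.32 (adjusted p = 0.836) and for the growth regulator gene Myc -0.18 ± 0.15 (adjusted p = 0.593). An exception was Spi1, the gene of PU.1, a myeloid ETS factor. Spi1 read 10.6, 10.5 and 8.74 FPKM in NC and 22.2, 18.4 and 17.7 FPKM in SH, with every SH library above every NC library (0.91 ± 0.12, adjusted p = 7.75e-05). Another ETS factor gene, Etv4, a target of ERK signalling, moved the other way, from 31.8 ± 2.36 to 20.2 ± 3.10 FPKM (-0.71 ± 0.15, adjusted p = 0.00314).

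Called genes of other factor families included repressors and signal transducers. Id2, an inhibitor of basic helix-loop-helix factors, read 103, 66.96 and 72.7 FPKM in NC and 26.3, 23.8 and 23.9 FPKM in SH (-1.77 ± 0.34, adjusted p = 0.00162). Hes1, a repressor known as a Notch target, read 10.6, 12.2 and 9.38 FPKM in NC and 4.38, 4.62 and 3.05 FPKM in SH (-1.47 ± 0.20, adjusted p = 7.75e-05). Nfil3, a basic leucine zipper repressor induced by cytokines, read 82.7, 102 and 99.02 FPKM in NC and 37.6, 46.5 and 43 FPKM in SH (-1.22 ± 0.14, adjusted p = 1.59e-05). In none of these did the groups overlap. Nfkb2, a subunit gene of the alternative NF-kB pathway on chromosome 19, went from 21.1 ± 1.91 to 13.9 ± 1.29 FPKM (-0.65 ± 0.14, adjusted p = 0.00391). Smad3, which transmits TGF-beta signals, rose from a low level, 0.445, 0.455 and 0.242 FPKM in NC and 1.83, 1.25 and 1.32 FPKM in SH (1.88 ± 0.36, adjusted p = 0.00162). Gtf2ird1, a gene of the TFII-I family of DNA-binding proteins, read 1.91, 1.68 and 1.40 FPKM in NC and 11.6, 10.4 and 8.57 FPKM in SH (2.55 ± 0.16, adjusted p = 6.06e-09).

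Zinc finger genes named ZFP, the largest family, contributed 6 rises and 11 falls of 239, or 7.11% called. This share was below the 9.07% of all genes and the 10.5% of protein-coding genes. With the replicate block 24 rose and 25 fell, where 1335 and 1237 of all 12183 genes did. Rises and falls numbered 4 and 7 without NC replicate 1, 3 and 11 without NC replicate 3, 3 and 9 without SH replicate 1, 2 and 10 without SH replicate 2, and 2 and 9 without SH replicate 3. Zfp532 read 7.05, 10.3 and 6.04 FPKM in NC and 0.931, 1.25 and 0.912 FPKM in SH (-2.97 ± 0.33, adjusted p = 7.00e-06) and Zfp385a, an RNA and DNA binding protein gene, 5.06, 6.25 and 8.27 FPKM in NC and 13.9, 18 and 17.5 FPKM in SH (1.27 ± 0.28, adjusted p = 0.00522). Zfp260 fell without E2 and not with it: it read 5.48, 5.17 and 3.82 FPKM in NC and 0.656, 0.291 and 0.667 FPKM in SH (-3.21 ± 0.44, adjusted p = 7.56e-05), and the difference with E2 was -0.44 ± 0.40 (adjusted p = 0.608). That contrast between the conditions did not pass the test of the difference. Nuclear receptors, the family of the targeted gene, had 0 called of 16 tested in edgeR (median log2 fold change 0.02), with 2 at an unadjusted p under 0.05, and 0 in DESeq2 and in limma. With the replicate block 3 rose and 2 fell. Of 21 tested classical estrogen response genes, 1 rose and 3 fell (19.05% called, beside 10.5% of protein-coding genes). The riser was Igf1, the growth factor gene (0.345, 0.486 and 0.209 FPKM in NC and 0.956, 1.51 and 2.30 FPKM in SH, 2.14 ± 0.34, adjusted p = 3.43e-04). Ccnd1 and Bcl2 fell and are described with the cell cycle below, and Siah2, a ubiquitin ligase gene on chromosome 3, had -0.56 ± 0.14 (adjusted p = 0.0112), lost without NC replicate 2 or SH replicate 1, in the 6 libraries alone and with replicates 2 and 3 alone (adjusted p = 0.0529 to 0.094). Greb1, the estrogen target of breast cells, overlapped at 3.83 ± 1.15 FPKM in NC and 3.30 ± 0.604 FPKM in SH (-0.27 ± 0.30, adjusted p = 0.691).

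On the cell surface, the TNF receptor superfamily had 7 of 12 tested members called, 5 rising and 2 falling. That was 58.3%, beside 10.5% of protein-coding genes. Tnfrsf9, the costimulatory receptor gene of activated lymphocytes and mast cells, read 8.65, 10.4 and 9.86 FPKM in NC and 37.5, 39.7 and 44.1 FPKM in SH, with a wide gap between the groups (2.01 ± 0.21, adjusted p = 4.76e-06). Tnfrsf18, the gene of the receptor GITR, read 1.62, 2.07 and 1.82 FPKM in NC and 5.11, 5.50 and 4.39 FPKM in SH (1.38 ± 0.28, adjusted p = 0.00292). Tnfrsf12a, the receptor gene for the cytokine TWEAK and a growth factor inducible gene, read 6.89, 6.75 and 8.78 FPKM in NC and 3.92, 3.65 and 3.37 FPKM in SH (-1.09 ± 0.24, adjusted p = 0.006). The death receptor genes Fas on chromosome 19 (1.57 ± 0.44) and Tnfrsf1a (2.54 ± 0.67) were called less firmly. The call of Fas was lost without NC replicate 1 or 3 or SH replicate 1, with no filter on low values, in the 6 libraries alone and with replicates 2 and 3 alone (adjusted p = 0.0518 to 0.398), and that of Tnfrsf1a lost without NC replicate 2 or 3 or SH replicate 1 and with replicates 2 and 3 alone (adjusted p = 0.0517 to 0.0912). The lymphotoxin receptor gene Ltbr (0.53 ± 0.12) and the decoy receptor gene Tnfrsf23 (-0.59 ± 0.16) were named after their values were seen. The call of Ltbr was lost without NC replicate 1 or SH replicate 1, in the 6 libraries alone and with replicates 2 and 3 alone (adjusted p = 0.0503 to 0.253), and that of Tnfrsf23 lost without NC replicate 3 or SH replicate 1 or 3, with no filter on low values, in the 6 libraries alone and with replicates 2 and 3 alone (adjusted p = 0.0583 to 0.164). The counts of rises and falls were 3 and 2 without NC replicate 1, 3 and 1 without NC replicate 3, 2 and 1 without SH replicate 1, and 5 and 1 without SH replicate 3.

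Cytokine receptors rose more often than they fell, 6 against 2 of 23 tested, and 10 against 3 with the replicate block. The main fit called 34.8% of them, beside 10.5% of protein-coding genes. Counted again, rises and falls were 5 and 1 without NC replicate 2 or 3 or SH replicate 2 or 3, and 5 and 0 without SH replicate 1. Il1r2, a decoy receptor gene for interleukin 1, read 1.05, 1.29 and 1.46 FPKM in NC and 7.53, 7.12 and 7.80 FPKM in SH (2.50 ± 0.34, adjusted p = 7.70e-05). Ifngr2, the signalling chain gene of the interferon gamma receptor, read 2.16, 1.57 and 1.28 FPKM in NC and 6.50, 4.53 and 4.47 FPKM in SH (1.57 ± 0.22, adjusted p = 9.85e-05). Il18rap, the accessory chain gene of the interleukin 18 receptor, read 30.7, 30.4 and 29.8 FPKM in NC and 44.97, 61.7 and 59.04 FPKM in SH (0.81 ± 0.11, adjusted p = 1.02e-04). In these receptors for inflammatory cytokines all SH libraries lay above all NC libraries. Csf2rb2, the interleukin 3 receptor beta chain gene, rose from 19.7 ± 2.48 to 38.1 ± 6.73 FPKM (0.90 ± 0.16); it is nearly identical to Csf2rb, and how shared reads were counted is not given in the sources used here. Il1rl1, the alarmin receptor gene ST2 typical of mast cells, moved the other way, from 13.6 ± 0.926 to 6.83 ± 2.25 FPKM (-1.04 ± 0.25, adjusted p = 0.00975), with its call lost without SH replicate 1 and in the 6 libraries alone (adjusted p = 0.0561 to 0.0719). The other falling member, Il4ra, the interleukin 4 receptor gene, was named after its values were seen (-0.41 ± 0.12, adjusted p = 0.043) and its call was lost without NC replicate 2 or 3 or SH replicate 1, 2 or 3, with no filter on low values, in the 6 libraries alone, in limma and with replicates 2 and 3 alone (adjusted p = 0.0567 to 0.181). Il12rb2, an interleukin 12 receptor chain gene, rose from 3.19 ± 0.737 to 6.60 ± 0.223 FPKM (0.99 ± 0.20, adjusted p = 0.00274), and Il2rg, the common gamma chain gene, also named after its values were seen, had 0.51 ± 0.16, lost without NC replicate 2 or 3 or SH replicate 1, 2 or 3, with no filter on low values, in the 6 libraries alone, with counts divided by 4 and with replicates 2 and 3 alone (adjusted p = 0.0507 to 0.211).

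Receptors of cell contact went both ways. Cd48, a SLAM family ligand gene of leukocytes, read 14.8, 11.5 and 14.2 FPKM in NC and 41.6, 53.5 and 76.3 FPKM in SH (2.03 ± 0.25, adjusted p = 2.95e-05), and Ly9, another SLAM member, 2.34, 2.47 and 3.71 FPKM in NC and 0.506, 0.488 and 0.782 FPKM in SH (-2.31 ± 0.34, adjusted p = 1.67e-04). These were 2 of the 3 family members tested. Among checkpoint genes, Pdcd1, the gene of the inhibitory receptor PD-1, read 5.34, 9.26 and 8.82 FPKM in NC and 1.88, 2.88 and 2.91 FPKM in SH (-1.67 ± 0.35, adjusted p = 0.00418). The ligand gene Cd274 (PD-L1, chromosome 19) overlapped between the groups, at 23.8 ± 5.31 FPKM in NC and 23.4 ± 7.60 FPKM in SH (-0.08 ± 0.26, adjusted p = 0.916). In all, 4 of 10 tested genes of this family rose and 1 fell. These counts of rises and falls became 2 and 1 without NC replicate 3. Its risers were Lgals9, a galectin gene taken up below (0.72 ± 0.12), Lag3, an inhibitory receptor gene (0.61 ± 0.13), lost in the 6 libraries alone (adjusted p = 0.0701), Vsig10 (1.48 ± 0.34), lost without NC replicate 3 (adjusted p = 0.0521), and Pdcd1lg2, the PD-L2 gene on chromosome 19 (0.90 ± 0.26), lost without NC replicate 2 or 3 or SH replicate 1, with no filter on low values and in the 6 libraries alone (adjusted p = 0.0729 to 0.182).

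Integrins, the matrix and cell adhesion receptors, had 2 rises and 1 fall of 13, and 4 and 2 with the replicate block. In the main fit 23.1% were called, beside 10.5% of protein-coding genes. With 1 library left out, rises and falls were 1 and 1 without NC replicate 2 or SH replicate 2, and 1 and 0 without NC replicate 3 or SH replicate 1. Itga2b, whose product pairs with that of Itgb3 as the platelet fibrinogen receptor, read 14.1, 11.4 and 11.8 FPKM in NC and 38.7, 28.6 and 34.3 FPKM in SH (1.38 ± 0.14, adjusted p = 2.82e-06). Itgb3 went from 8.01 ± 2.85 to 23.3 ± 6.003 FPKM (1.48 ± 0.40, adjusted p = 0.0232), with its call lost without NC replicate 2 or 3 or SH replicate 1 or 2 and with replicates 2 and 3 alone (adjusted p = 0.0527 to 0.121). Itgb1, the beta chain gene shared by many integrins, had -0.35 ± 0.09 (adjusted p = 0.0181), lost without NC replicate 3 or SH replicate 1, with no filter on low values, in the 6 libraries alone and with replicates 2 and 3 alone (adjusted p = 0.0724 to 0.173). Adam8, a sheddase gene that cuts surface proteins, read 33.1, 29.4 and 23.2 FPKM in NC and 7.91, 8.45 and 9.94 FPKM in SH, with the lowest NC library above the highest SH library by more than 2-fold (-1.76 ± 0.14, adjusted p = 1.05e-07). Among immunoglobulin-like receptors, the inhibitory receptor gene Pirb (0.295 ± 0.114 to 1.43 ± 0.160 FPKM; 2.21 ± 0.37) and Cd33 (0.98 ± 0.22) rose from under 1 FPKM. Pirb shares sequence with the Pira genes. The tetraspanin gene Tspan32 went from 4.90 ± 0.851 to 11.1 ± 2.37 FPKM (1.12 ± 0.19, adjusted p = 4.84e-04).

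G protein-coupled receptors and channels separated the groups in either direction. F2r, the thrombin receptor gene, read 236, 281 and 250 FPKM in NC and 91.2, 145 and 117 FPKM in SH (-1.17 ± 0.15, adjusted p = 4.91e-05). Ccr7, the lymph node homing receptor gene, read 26.8, 24.7 and 30.6 FPKM in NC and 7.95, 12.4 and 11.3 FPKM in SH (-1.43 ± 0.20, adjusted p = 1.02e-04), and Gpr65, a proton-sensing receptor gene, 6.80, 6.24 and 5.09 FPKM in NC and 26.1, 20.6 and 21.6 FPKM in SH (1.86 ± 0.19, adjusted p = 2.40e-06). Mrgprb1, of the mast cell Mrgpr family, stood at 3.29 ± 0.446 FPKM in NC and 0.117 ± 0.0288 FPKM in SH, and Gpr132, a lipid-responsive receptor gene, went from 1.68 ± 0.384 to 0.481 ± 0.0845 FPKM (-1.85 ± 0.23, adjusted p = 2.34e-05). Ptger3, a prostaglandin E receptor gene on chromosome 3, rose from 19.6 ± 1.76 to 34.6 ± 2.81 FPKM (0.76 ± 0.10, adjusted p = 6.37e-05). Hvcn1, the voltage-gated proton channel gene, read 8.99, 7.79 and 10.7 FPKM in NC and 24.04, 33.4 and 30.1 FPKM in SH (1.61 ± 0.21, adjusted p = 4.91e-05). Acvr2a, an activin receptor gene, went from 9.31 ± 1.76 to 4.03 ± 0.811 FPKM (-1.27 ± 0.18, adjusted p = 9.85e-05). Over the lists of lipid, nucleotide, amine, orphan and Mrgpr receptors, 5 genes rose and 6 fell of 41 tested. For the 20 lipid, nucleotide and amine receptors among them, 3 rose and 3 fell. Rises and falls came to 1 and 3 without NC replicate 2, and 1 and 2 without SH replicate 1. For the 21 orphan and Mrgpr receptors, 2 rose and 3 fell (23.8% called). Rises and falls numbered 1 and 3 without NC replicate 2 or 3 or SH replicate 2 or 3.

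**Figure D4:**
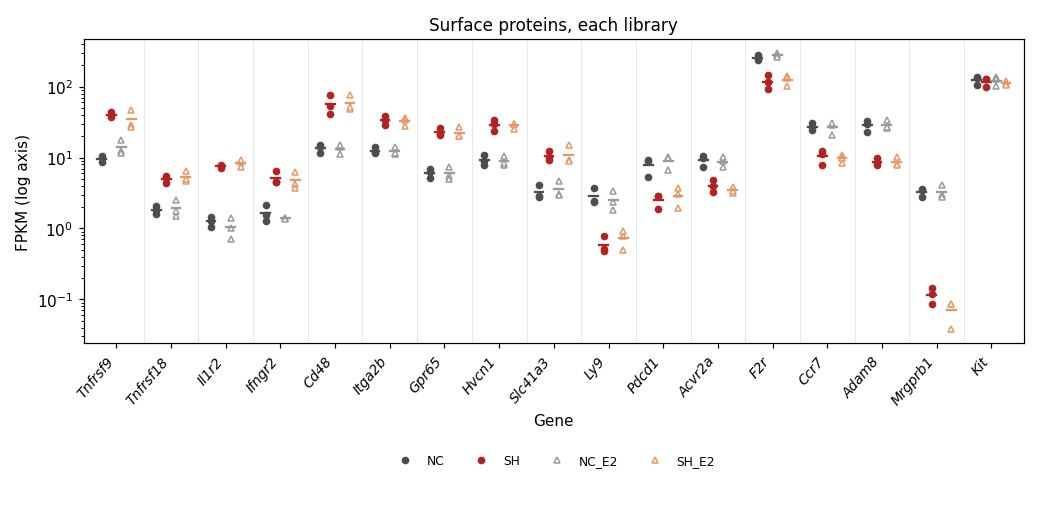
FPKM on a log axis of surface protein genes in every library of NC, SH, NC_E2 and SH_E2, with bars at the group means. From Tnfrsf9 to Slc41a3 all SH libraries lie above all NC libraries, from Ly9 to Mrgprb1 below, and Kit overlaps.

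Transporters were numerous but moderate. Of 168 solute carrier genes 14 rose and 9 fell, or 24 and 31 with the replicate block. In the main fit 13.7% were called, beside 10.5% of protein-coding genes. The counts of rises and falls were 8 and 7 without NC replicate 1, 6 and 7 without NC replicate 2, 9 and 6 without NC replicate 3, 9 and 8 without SH replicate 2, and 8 and 6 without SH replicate 3. Slc7a11, the cystine importer gene on chromosome 3, went against that chromosome's trend, at 38.6, 33.8 and 24.3 FPKM in NC and 16.8, 14.3 and 11.7 FPKM in SH (-1.23 ± 0.23, adjusted p = 0.00167). Slc41a3, a magnesium transporter family gene, read 4.05, 2.84 and 2.82 FPKM in NC and 12.2, 9.14 and 10.2 FPKM in SH (1.64 ± 0.26, adjusted p = 2.99e-04). Slc17a9, the vesicular nucleotide transporter gene, read 15.1, 9.70 and 10.4 FPKM in NC and 5.97, 4.80 and 4.77 FPKM in SH (-1.23 ± 0.21, adjusted p = 4.91e-04). Antigen presentation genes came next. Of 22 genes of MHC class I and its peptide supply, 4 rose (18.2%, beside 5.83% of protein-coding genes) and 0 fell, or 8 and 3 with the replicate block. Counted again, rises and falls were 1 and 0 without NC replicate 1 or 2 or SH replicate 3. Under every setting the call of Tap1, the peptide transporter gene, held (7.91 ± 0.904 to 15.96 ± 3.14 FPKM; 0.95 ± 0.20, adjusted p = 0.00409). H2-K1, a class I heavy chain gene, had -0.09 ± 0.27 (adjusted p = 0.911). B2m, its light chain, had 0.28 ± 0.14 (adjusted p = 0.237), with adjusted p = 0.0189 under the replicate block. Cd74, the class II invariant chain gene, rose from 1.80 ± 0.330 to 5.38 ± 0.516 FPKM (1.52 ± 0.26, adjusted p = 7.33e-04).

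Granule protease genes went both ways. Of 10 tested mast cell tryptase, chymase and carboxypeptidase genes, 5 rose and 2 fell (70.0% called, beside 10.5% of protein-coding genes). These counts of rises and falls became 2 and 2 without NC replicate 2, and 3 and 2 without NC replicate 3 or SH replicate 1 or 3. Mcpt8, a protease gene typical of basophils, read 7.94, 10.9 and 17.6 FPKM in NC and 29.2, 46.97 and 44.9 FPKM in SH (1.67 ± 0.38, adjusted p = 0.00654), and Mcpt2 5.21, 5.15 and 4.61 FPKM in NC and 28.8, 20.7 and 13.3 FPKM in SH (2.0 ± 0.29, adjusted p = 1.34e-04). Cpa3, carboxypeptidase A3 on chromosome 3, read 290, 183 and 185 FPKM in NC and 545, 463 and 543 FPKM in SH (1.18 ± 0.28, adjusted p = 0.00783), lost without NC replicate 2 (adjusted p = 0.0506). The tryptase gene Tpsab1 moved the other way, at 6.29, 3.34 and 2.33 FPKM in NC and 0.569, 0.538 and 0.683 FPKM in SH (-2.77 ± 0.48, adjusted p = 7.24e-04). Ctsg, cathepsin G, was the most abundant protease of the list at 289 ± 73.03 FPKM in NC and 564 ± 42.7 FPKM in SH (0.91 ± 0.25, adjusted p = 0.0234), with its call lost without NC replicate 2 or 3 or SH replicate 1 or 3 (adjusted p = 0.0512 to 0.118). These genes have close paralogs, and how reads shared between them were counted is not given in the sources used here. In a list of granzymes, perforin and Srgn, whose proteoglycan product packs granule proteases, 3 of 4 tested genes fell and 0 rose, beside 4.66% falling of protein-coding genes. Gzmb, granzyme B, read 67.1, 66.3 and 65.1 FPKM in NC and 2.57, 7.16 and 3.71 FPKM in SH, and Srgn 163, 135 and 149 FPKM in NC and 99.5, 87.1 and 90.3 FPKM in SH (-0.75 ± 0.17, adjusted p = 0.00607). Gzmc was called too (-4.78 ± 0.94, adjusted p = 0.00291), lost in the 6 libraries alone (adjusted p = 0.058), while the perforin gene Prf1 had -0.56 ± 0.31 (adjusted p = 0.341), with adjusted p = 0.00101 under the replicate block. Hdc, which makes histamine and was named after its values were seen, differed by 0.12 ± 0.10 (adjusted p = 0.576).

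Of 19 tested genes of cathepsins and of cystatins, which inhibit them, 3 rose and 4 fell (36.8% called, beside 10.5% of protein-coding genes). The falls included the cystatin gene Cstb, named after its values were seen (-0.56 ± 0.17), lost without NC replicate 1, 2 or 3 or SH replicate 1, 2 or 3, with no filter on low values, in limma and with replicates 2 and 3 alone (adjusted p = 0.0566 to 0.227). With 1 library left out, rises and falls were 1 and 3 without NC replicate 2 or 3, and 1 and 4 without SH replicate 1. Ctse, cathepsin E, read 18.5, 15.1 and 19.2 FPKM in NC and 5.89, 5.25 and 5.88 FPKM in SH (-1.69 ± 0.13, adjusted p = 4.75e-08) and Ctsz, cathepsin Z, 85.9, 79.99 and 107 FPKM in NC and 53.5, 47.3 and 52.6 FPKM in SH (-0.89 ± 0.14, adjusted p = 3.61e-04). Cpvl, a serine carboxypeptidase gene, read 121, 99.6 and 100 FPKM in NC and 10.4, 11.1 and 9.57 FPKM in SH. In each, the SH libraries kept within a narrow range well below NC. Lyz2, the lysozyme gene of myeloid cells, went the other way, from 4.32 ± 0.763 to 10.7 ± 0.441 FPKM (1.24 ± 0.23, adjusted p = 0.00137), and so did Wfdc12, a secreted protease inhibitor gene, at 46.3, 47.9 and 56.8 FPKM in NC and 134, 256 and 310 FPKM in SH (2.16 ± 0.26, adjusted p = 2.06e-05). Serpina3g, an intracellular serpin gene of a clustered family with close paralogs, read 0.383, 0.714 and 0.374 FPKM in NC and 2.66, 12.3 and 14.6 FPKM in SH, where SH replicate 1 was far below the other SH libraries (4.27 ± 0.93, adjusted p = 0.00491).

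Of 15 matrix genes 6 fell and 1 rose (46.7% called, beside 10.5% of protein-coding genes). Rises and falls came to 0 and 6 without NC replicate 2, and 0 and 5 without SH replicate 1. Spp1, osteopontin, a secreted ligand of integrins and the most abundant gene of that list, read 751, 982 and 857 FPKM in NC and 100, 249 and 222 FPKM in SH (-2.23 ± 0.30, adjusted p = 6.39e-05). The laminin chain gene Lama5 read 10.7, 12.9 and 10.4 FPKM in NC and 3.34, 4.74 and 3.71 FPKM in SH (-1.58 ± 0.28, adjusted p = 7.40e-04). Plau, the urokinase gene, whose product activates plasmin at the cell surface, read 122, 135 and 167 FPKM in NC and 38.3, 72.6 and 50.99 FPKM in SH (-1.44 ± 0.25, adjusted p = 6.98e-04). Another laminin chain gene, Lamb3, had -1.56 ± 0.33, lost in the 6 libraries alone (adjusted p = 0.0849). In Spp1 and Plau, SH replicate 1 was the lowest of the 6 libraries. The single riser was Ecm1 on chromosome 3 (0.68 ± 0.16), named after its values were seen, lost without NC replicate 2 or SH replicate 1, in the 6 libraries alone and with replicates 2 and 3 alone (adjusted p = 0.0602 to 0.0894).

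Cytokines and growth factors were few and split. Of 12 chemokine genes 3 rose (25.0%, beside 5.83% of protein-coding genes) and 0 fell, or 4 and 2 with the replicate block. Ccl2, a monocyte attractant, read 54.6, 90.7 and 55.3 FPKM in NC and 127, 217 and 178 FPKM in SH (1.32 ± 0.29, adjusted p = 0.00559), and Pf4, platelet factor, 5.72, 7.91 and 6.55 FPKM in NC and 31.6, 37.7 and 43.8 FPKM in SH (2.42 ± 0.24, adjusted p = 2.40e-06). The third, Ccl25, had 0.55 ± 0.16, lost without NC replicate 1, 2 or 3 or SH replicate 1, with no filter on low values, in the 6 libraries alone, in limma and with replicates 2 and 3 alone (adjusted p = 0.063 to 0.182). Of 9 TNF superfamily ligand genes 3 rose and 1 fell (44.4% called), or 3 and 3 with the replicate block. The share called of protein-coding genes was 10.5%. Tnf itself read 37.7, 55.5 and 58.7 FPKM in NC and 7.28, 21.6 and 20.3 FPKM in SH (-1.68 ± 0.40, adjusted p = 0.00907), lost in the 6 libraries alone (adjusted p = 0.0721). Ltb, lymphotoxin beta, rose from a low level (0.595 ± 0.203 to 2.69 ± 0.811 FPKM; 2.10 ± 0.49, adjusted p = 0.00767). Il16, a chemoattractant cytokine gene, did so too (0.784 ± 0.361 to 3.04 ± 0.519 FPKM; 1.90 ± 0.39, adjusted p = 0.00323). Tnfsf13b, the B cell survival factor BAFF, went from 0.369 ± 0.0932 to 0.943 ± 0.163 FPKM (1.29 ± 0.26, adjusted p = 0.00254). Among growth and differentiation factors 5 of 20 fell and 1, Igf1, rose, or 7 and 3 with the replicate block. Rises and falls numbered 1 and 3 without NC replicate 1 or SH replicate 1, 2 or 3, and 1 and 2 without NC replicate 3. Angpt1, angiopoietin 1, read 19.1, 15.8 and 17.4 FPKM in NC and 6.24, 7.78 and 8.12 FPKM in SH (-1.29 ± 0.13, adjusted p = 2.12e-06). Vgf, a secreted neuropeptide precursor gene inducible by growth factors, read 9.33, 9.97 and 6.62 FPKM in NC and 1.47, 0.992 and 1.20 FPKM in SH (-2.88 ± 0.28, adjusted p = 2.27e-06). S100a4, a calcium-binding protein gene on chromosome 3 with secreted forms, read 77, 88.5 and 112 FPKM in NC and 243, 265 and 273 FPKM in SH (1.44 ± 0.26, adjusted p = 9.53e-04), and Lgals9, galectin 9, 60.9, 47.4 and 54.1 FPKM in NC and 104, 89.3 and 84.8 FPKM in SH (0.72 ± 0.12, adjusted p = 5.79e-04).

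**Figure D5:**
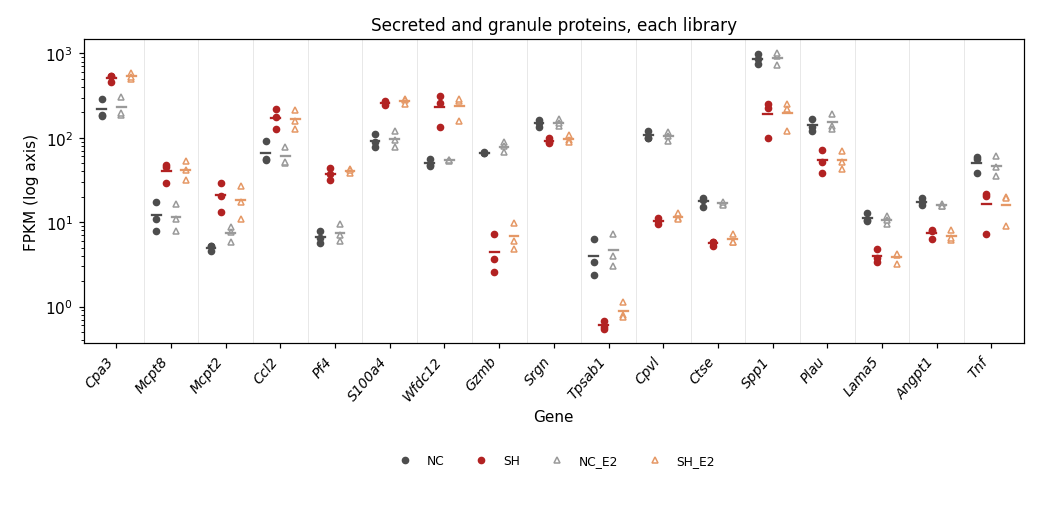
FPKM on a log axis of genes of secreted and granule proteins in every library of NC, SH, NC_E2 and SH_E2, with bars at the group means. Cpa3 to Wfdc12 lie higher in every SH library than in any NC library, and Gzmb to Tnf lower.

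Inside the cell, signalling and trafficking families were examined. Of 17 protein kinase C, phospholipase C and diacylglycerol kinase genes, 4 rose (23.5%) and 0 fell, or 5 and 1 with the replicate block. Of protein-coding genes 5.83% rose in the main fit. Plcb2, a phospholipase activated by G proteins, read 2.36, 2.40 and 1.93 FPKM in NC and 5.69, 8.51 and 6.62 FPKM in SH (1.58 ± 0.25, adjusted p = 3.04e-04), and Prkcq, protein kinase C theta, 2.14, 1.29 and 1.40 FPKM in NC and 4.21, 3.40 and 4.41 FPKM in SH (1.26 ± 0.20, adjusted p = 3.61e-04). Of 41 RAB genes of vesicle transport 5 rose and 1 fell, or 5 and 4 with the replicate block. In the main fit 14.6% were called, beside 10.5% of protein-coding genes. The fall was that of Rab5a (-0.35 ± 0.09), named after its values were seen, lost without NC replicate 2 or SH replicate 1, with no filter on low values, in the 6 libraries alone and with replicates 2 and 3 alone (adjusted p = 0.0522 to 0.119). Rab38, which serves lysosome-related organelles, read 47.4, 46.2 and 45.5 FPKM in NC and 109, 115 and 114 FPKM in SH, with little spread within either group (1.22 ± 0.11, adjusted p = 8.80e-07), and Rab44 went from 3.88 ± 0.585 to 7.31 ± 1.05 FPKM (0.85 ± 0.17, adjusted p = 0.00237). Arhgef3, a guanine nucleotide exchange factor gene, read 0.773, 0.965 and 0.577 FPKM in NC and 5.71, 5.63 and 5.17 FPKM in SH (2.77 ± 0.40, adjusted p = 1.22e-04). Clnk, an adaptor gene of immune receptor signalling, rose from 2.07 ± 0.496 to 11.9 ± 4.76 FPKM (2.46 ± 0.27, adjusted p = 6.24e-06).

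Cell cycle and survival genes were called at about the background share. Of 34 cyclin, cyclin-dependent kinase and inhibitor genes, 3 fell and 0 rose, or 8 and 2 with the replicate block. The main fit called 8.82% of them, beside 9.07% of all genes and 10.5% of protein-coding genes. The counts of rises and falls were 1 and 1 without SH replicate 2. Ccnd1, cyclin D1, which couples growth signals to cell cycle entry, read 115, 118 and 128 FPKM in NC and 40.6, 55.7 and 51.05 FPKM in SH (-1.35 ± 0.14, adjusted p = 4.76e-06). Ccnd2 went from 64.97 ± 14.5 to 37.5 ± 10.4 FPKM (-0.85 ± 0.22, adjusted p = 0.0171), lost without NC replicate 1 or SH replicate 2 or 3 and in the 6 libraries alone (adjusted p = 0.0835 to 0.0947). The third was Cdk17 (-0.45 ± 0.13), whose FPKM ranges overlapped and whose call was lost without NC replicate 1 or 2 or SH replicate 2 or 3, with no filter on low values, in the 6 libraries alone, in limma and with replicates 2 and 3 alone (adjusted p = 0.0607 to 0.131). Bcl2, the survival gene, fell as 1 of 14 in its family (7.14%), at 10.8, 12.9 and 11.4 FPKM in NC and 7.42, 7.33 and 6.78 FPKM in SH (-0.76 ± 0.17, adjusted p = 0.00682). Aldo-keto reductases split: Akr1c13 read 158, 123 and 93.1 FPKM in NC and 731, 652 and 718 FPKM in SH (2.43 ± 0.25, adjusted p = 4.00e-06) and Akr1c18, which inactivates progesterone, 3.94, 2.81 and 4.61 FPKM in NC and 0.675, 1.07 and 0.501 FPKM in SH (-2.38 ± 0.35, adjusted p = 1.55e-04), both in a cluster of close paralogs. Ifitm3, an antiviral membrane protein gene, read 32.3, 45.7 and 64.8 FPKM in NC and 4.61, 7.70 and 10.8 FPKM in SH (-2.68 ± 0.39, adjusted p = 1.26e-04), while the interferon-induced Oas1a rose from 0.284 ± 0.102 to 1.95 ± 0.702 FPKM (2.70 ± 0.38, adjusted p = 9.38e-05). That family had 4 rises and 1 fall of 30 (16.7% called, beside 10.5% of protein-coding genes), and 10 and 4 with the replicate block. Counted again, rises and falls were 2 and 1 without NC replicate 2 or 3, and 3 and 2 without SH replicate 1 or 3.

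Genes of further families were called as well. Cd180, a Toll-like receptor homologue gene of B cells and myeloid cells, went from 0.698 ± 0.0620 to 1.49 ± 0.206 FPKM (1.03 ± 0.21, adjusted p = 0.00294), and Bcam, an adhesion receptor gene for laminin, from 4.89 ± 0.296 to 10.6 ± 2.21 FPKM (1.05 ± 0.15, adjusted p = 8.59e-05). Sema3g, a secreted semaphorin gene, read 2.03, 2.24 and 2.73 FPKM in NC and 0.759, 1.01 and 1.31 FPKM in SH (-1.24 ± 0.28, adjusted p = 0.00624). Among RAS regulators, with the GTPase gene Rap2a counted among them, 3 of 27 rose and 0 fell, or 6 and 1 with the replicate block. The main fit called 11.1% of them, near the 10.5% of protein-coding genes. Rasgrp4, a RAS exchange factor gene known from mast cells, read 1.24, 1.07 and 1.06 FPKM in NC and 2.21, 1.73 and 2.25 FPKM in SH (0.82 ± 0.18, adjusted p = 0.00546), and Rap2a, a small GTPase gene, went from 2.87 ± 0.719 to 6.71 ± 1.74 FPKM (1.17 ± 0.25, adjusted p = 0.00443). The third, Rap1gds1 on chromosome 3, had 0.95 ± 0.20. Of genes that build surface glycans 16.2% were called, beside 10.5% of protein-coding genes. They went in both directions, 3 rising and 3 falling of 37, or 5 and 5 with the replicate block. These counts of rises and falls became 1 and 3 without NC replicate 1 or 2. Fut8, the core fucosyltransferase gene, had -0.62 ± 0.11 (adjusted p = 0.00105), St3gal2, a sialyltransferase gene, -0.66 ± 0.15 (adjusted p = 0.00627), and Galnt7, which acts in mucin-type glycosylation, 0.66 ± 0.14 (adjusted p = 0.00474). Myo1g, an unconventional myosin gene of the leukocyte membrane, read 23.5, 20.7 and 20.5 FPKM in NC and 16.5, 15.3 and 16.1 FPKM in SH (-0.49 ± 0.10, adjusted p = 0.00304). The proton pump list had 3 falls and 0 rises of 17, or 17.65% falling beside 4.66% of protein-coding genes. With the replicate block it had 7 falls. With 1 library left out, rises and falls were 0 and 1 without NC replicate 1 or SH replicate 2 or 3. It was led by Atp6v0d2, a membrane subunit gene, at 1.49, 2.05 and 1.60 FPKM in NC and 0, 0.110 and 0.0706 FPKM in SH.

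For 6 of the genes above, chosen after their values were seen, the levels in the antiestrogen groups without E2 are given side by side and without a test, since the comparisons with NC would share the NC libraries. Jun averaged 27.8 FPKM in ICI and 34.98 FPKM in Tamo, beside 28.3 FPKM in NC and 5.23 FPKM in SH. For Spp1 the antiestrogen means were 914 FPKM in ICI and 946 FPKM in Tamo, beside 863 FPKM in NC and 191 FPKM in SH. For Tnfrsf9 they were 10.6 FPKM in ICI and 11.4 FPKM in Tamo, beside 9.65 FPKM in NC and 40.5 FPKM in SH, and for Cd48 14.7 FPKM in ICI and 13.4 FPKM in Tamo, beside 13.5 FPKM in NC and 57.1 FPKM in SH. Ccnd1 had 123 FPKM in ICI and 133 FPKM in Tamo (120 FPKM in NC and 49.1 FPKM in SH) and Rab38 44.8 FPKM in ICI and 44.1 FPKM in Tamo (46.4 FPKM in NC and 113 FPKM in SH).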

How the data were processed

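Total RNA of P815 cells was sequenced in 24 libraries. The authors trimmed reads with cutadapt and aligned them with HISAT2 to GRCm38, per the submitters' processing notes; the gene counter, its annotation and its use of strand are not stated in those notes or labels, and reads of genes that overlap or run antisense to each other may be mixed. Per the file headers the deposited table gives, per gene and library, estimated counts and FPKM. The estimated counts deposited by the authors are whole numbers and needed no rounding. The FPKM values were made by the authors, and their placeholder 0.0001 was set to 0.

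Genes with at least 1 FPKM in at least 3 of the 24 libraries were tested (12183 of 55385 in the table). The counts were fitted in edgeR 4.0.16 (R 4.3.3; TMM scaling, 1 coefficient per group over all 24 libraries, quasi-likelihood test, two-sided, Benjamini-Hochberg adjustment, threshold 0.05), a fit checked on simulated data. DESeq2 1.42.0 and limma 3.58.1 served as alternatives. SH and NC libraries of the same number correlated in their deviations from the group means (r = 0.337, 0.164 and 0.211), so a fit with the replicate number as a block was also run. The design had assumed counts, and the count test was kept for estimated counts.

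Named genes were the 10 largest called rises and 10 largest called falls with separate FPKM ranges and a mean of at least 5 FPKM, in each of 77 gene lists up to 5 called members with the largest change and 3 with the highest level, a fixed set of mast cell, estrogen and presentation genes, and genes said to be named after their values were seen. The members, gene lists and 7 marker lists (mast cell, macrophage and dendritic cell, basophil, T and NK cell, B cell, erythroid and megakaryocyte, fibroblast and epithelium) were chosen with earlier results of these data known, and 29 entries that a list's pattern had matched wrongly were removed after values were seen. Promoter windows are from RefSeq (GRCm38.p6). Some genes and 1 gene family that met the naming rule are not reported here.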

Additional observations from a re-analysis of the deposited data

How the results depend on the processing

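The 1105 calls of SH against NC became 2572 with the replicate block and 557 when the 6 libraries were fitted alone. Leaving out 1 library gave 781 to 910. DESeq2 called 1453, DESeq2's size factors in edgeR 1108, no filter on low values 869, a filter on the 6 libraries 1066, counts divided by 4 1118, replicates 2 and 3 alone 768, and limma 1184 (771 rising, 413 falling) or, with a pseudocount of 0.1, 1157 (735 rising, 422 falling). The 1168 calls of SH_E2 against NC_E2 became 2667 with the replicate block, 554 in the 6 libraries alone, 747 with replicates 2 and 3 alone and 778 to 898 with 1 library left out. Their same-numbered libraries correlated at r = 0.329, 0.0967 and 0.12. The second of these is just under the 0.1 asked of every pair here, and SH_E2 replicate 2 correlated more with NC_E2 replicate 3 (r = 0.163), so pairing was not taken as given there. With any 1 library left out the Esr1 difference lay between -0.471 and -0.0222, and an unfiltered edgeR fit gave -0.362 (unadjusted p = 0.318). Of 247 called genes chosen for naming, 116 kept their call under every setting, 102 lost it without some library and 125 under another setting, and 0 changed sign. At 53.1 to 66.6 M estimated counts a library, Esr2 and Gper1 (0 to 8 counts) were too low to compare. For Esr1 the limits were the spread among replicates and the 3 libraries a group.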
